A study of Mus musculus with 16 samples.

Results

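The 10 gene loci described here belong to the epithelial-to-mesenchymal transition (EMT): the transcription factor genes Snai1, Snai2, Zeb1, Zeb2, Twist1, Twist2 and Prrx1, and the mesenchymal marker genes Vim, Cdh2 and Fn1. A region of open chromatin (an ATAC-seq peak) was taken as a member of a locus when the protein-coding start site nearest to its midpoint, within 100 kb, was that of one of these genes in the GENCODE vM21 basic annotation. By this rule 138 of the 136630 nuclear peaks were members, with 9 at Snai1, 4 at Snai2, 17 at Zeb1, 16 at Zeb2, 6 at Twist1, 19 at Twist2, 18 at Prrx1, 9 at Vim, 26 at Cdh2 and 14 at Fn1. The rule assigns peaks by distance alone and does not show which gene a peak acts on. No measured value entered the rule.

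In EMT, epithelial cells loosen their junctions, lose their apical to basal order and take on a migratory, fibroblast-like form. Transcription factors of the SNAIL, ZEB and TWIST families bind E-box sequences and repress E-cadherin and other junction genes, while genes such as vimentin, N-cadherin and fibronectin are switched on. TGF-beta, acting through SMAD2, SMAD3 and SMAD4, is a well known inducer of the programme in pancreatic ductal adenocarcinoma (PDAC), and the miR-200 microRNAs restrain the ZEB factors.

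The study compared chromatin accessibility between PDAC cells growing in the pancreas, liver or lungs, with the tumour suppressor Smad4 silenced or restored. The tumour cells came from KC-shSmad4 mice, in which Ptf1a-Cre (active in the embryonic pancreas) turns on the rtTA3-mKate2 reporter at Rosa26, and an inducible Smad4 hairpin at Col1a1 is expressed while doxycycline (Dox) is given. All groups, controls included, carry the same engineered alleles, the hairpin among them. Tumour-derived cell lines were injected into the pancreas, into the spleen with splenectomy (liver metastases) or into the tail vein (lung metastases) of immunodeficient Foxn1nu female hosts 6 to 8 weeks old, which lack mature T cells, and mKate2+ cells were sorted. Dox chow kept Smad4 off, and Dox was withdrawn at week 4 (pancreas), 5 (liver) or 6 (lungs) for restoration, for 14 days by the study's account, although the lung columns of the table name day 15. Groups are written Panc_OFF, Liv_OFF and Lung_OFF (on Dox, Smad4 off) and Panc_ON, Liv_ON and Lung_ON (off Dox, Smad4 restored). The liver groups had 2 mice each and the other groups 3, so 16 in all, each sample an independent mouse. The time in the host differed between organs by design and cannot be told apart from the organ.

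The deposited values were normalised read counts per peak, from 23.0 to 38.2 M reads (M, mega) in peaks per sample. A difference was called when its absolute log2 value was at least 0.58 at a Benjamini-Hochberg adjusted p of at most 0.1 over all nuclear peaks, from limma on log2(normalised count + 1). On this scale a difference understates the change of low peaks. The ductal tumour markers Krt19, Epcam and Sox9 were open in every group, with mean start-site counts from 3038 to 8982 for Krt19, from 393.5 to 2389 for Epcam and from 2856 to 3500 for Sox9 across the 6 groups. The start-site peaks of 8 fibroblast markers together summed to between 1499 and 5268 in a sample. Some libraries stood apart from the others of their group: by a chi-square of their counts per degree of freedom, Panc_ON mouse 3 differed from its 2 partners by 20.9 and 14.2 where these differed from each other by 3.70, and Lung_OFF mouse 1 differed from its partners by 18.7 and 16.9 against 8.20 between them. Liv_ON mouse 1 exceeded Liv_ON mouse 2 at 108 of the 138 members (78.3%, against 48.3% of all peaks). In sorted bulk cells, fewer cells in an open state and less accessibility per cell cannot be told apart.

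The members were mostly distal. Of the 138 peaks, 65 lay in introns, 60 between genes, 12 within 1 kb of a start site and 1 in an exon, which is 47.1%, 43.5%, 8.7% and 0.7% against 41.5%, 45.4%, 10.8% and 2.27% of all nuclear peaks. Their median width was 520 bp against 588 bp over all peaks, and their median GC content 42.9% against 45.9%. Within a locus, the peak at the start site (the member nearest to it) held very different shares of the summed signal, from 13.1% at Twist2 and 20.5% at Snai1 to 77.3% at Vim and 87.1% at Snai2. A locus sum therefore followed the promoter at Snai2 and Vim and the distal peaks at Twist2 and Snai1.

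Sequences of 9 distal members are shown because they carry the contrasts described below: 6 had much lower and 2 much higher counts in liver than in lung metastases, and 1, at Prrx1, was much lower in the lungs than in the pancreas. They are the central 200 bp of each peak in mm10, plus strand, 5′ to 3′. Capitals mark TGANTCA, the core recognised by AP-1 factors, and CAGGTG, the E-box bound by SNAI and ZEB factors, on either strand.
Snai1 +12.4 kb (chr2:167550473-167550672): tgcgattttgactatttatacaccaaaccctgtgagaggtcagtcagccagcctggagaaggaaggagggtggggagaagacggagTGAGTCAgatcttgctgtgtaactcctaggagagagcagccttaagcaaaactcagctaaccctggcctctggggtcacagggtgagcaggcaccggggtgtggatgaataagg
Snai2 +30.5 kb (chr16:14736266-14736465): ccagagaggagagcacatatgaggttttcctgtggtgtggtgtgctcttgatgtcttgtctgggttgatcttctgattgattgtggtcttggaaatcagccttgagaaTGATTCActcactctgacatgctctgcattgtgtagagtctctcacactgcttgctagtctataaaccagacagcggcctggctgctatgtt
Zeb2 -9.1 kb (chr2:45126438-45126637): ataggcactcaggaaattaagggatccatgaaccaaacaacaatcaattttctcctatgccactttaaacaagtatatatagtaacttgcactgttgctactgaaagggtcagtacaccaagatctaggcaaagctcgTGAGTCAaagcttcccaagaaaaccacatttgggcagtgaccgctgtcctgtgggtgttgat
Twist1 +82.8 kb (chr12:34040377-34040576): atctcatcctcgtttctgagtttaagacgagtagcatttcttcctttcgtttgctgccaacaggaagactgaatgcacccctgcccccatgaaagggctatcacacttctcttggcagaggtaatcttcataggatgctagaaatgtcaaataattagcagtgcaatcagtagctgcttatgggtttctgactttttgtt
Twist2 +24.1 kb (chr1:91825478-91825677): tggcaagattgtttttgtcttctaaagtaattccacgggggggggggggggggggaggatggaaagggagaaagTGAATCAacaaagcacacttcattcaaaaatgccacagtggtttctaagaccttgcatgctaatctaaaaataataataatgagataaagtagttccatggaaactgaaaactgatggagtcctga
Fn1 -98.7 kb (chr1:71751759-71751958): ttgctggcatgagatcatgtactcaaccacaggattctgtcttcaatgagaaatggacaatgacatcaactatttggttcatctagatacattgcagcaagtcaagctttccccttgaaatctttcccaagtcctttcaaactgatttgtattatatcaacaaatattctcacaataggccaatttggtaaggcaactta
Snai2 +94.5 kb (chr16:14800296-14800495): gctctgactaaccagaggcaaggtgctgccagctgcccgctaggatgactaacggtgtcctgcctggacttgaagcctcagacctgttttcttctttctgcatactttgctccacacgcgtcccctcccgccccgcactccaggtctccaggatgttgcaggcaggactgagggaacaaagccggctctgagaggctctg
Twist2 -93.5 kb (chr1:91707873-91708072): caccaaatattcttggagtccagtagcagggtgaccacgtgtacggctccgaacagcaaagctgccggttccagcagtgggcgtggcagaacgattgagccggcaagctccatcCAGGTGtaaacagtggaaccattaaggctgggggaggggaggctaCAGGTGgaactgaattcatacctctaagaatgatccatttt
Prrx1 +28.1 kb (chr1:163285446-163285645): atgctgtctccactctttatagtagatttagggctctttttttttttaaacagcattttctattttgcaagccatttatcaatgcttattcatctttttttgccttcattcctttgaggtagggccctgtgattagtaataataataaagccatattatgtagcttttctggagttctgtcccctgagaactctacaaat
Of the 6 lower in liver, Snai1 +12.4 kb, Snai2 +30.5 kb, Zeb2 -9.1 kb and Twist2 +24.1 kb held TGANTCA, and Twist1 +82.8 kb and Fn1 -98.7 kb held neither motif, nor did Prrx1 +28.1 kb. These were chosen after their values were seen, and the share with TGANTCA over all 85 members called lower was 48.2%. Of the 2 higher in liver, Twist2 -93.5 kb held CAGGTG at 2 places and Snai2 +94.5 kb held neither. In central windows of this length, TGANTCA was found in 49 of the 138 members (35.5%) and in 28.1% of all peaks, and CAGGTG in 18 (13.0%) and 13.0%. A match describes the letters of the window and not a bound factor.

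The first question was whether the EMT loci differed between organs while Smad4 was off. They were less open in liver metastases. Between Liv_OFF and Lung_OFF, 92 of the 138 members were called (66.7%, against 49.7% of all nuclear peaks), 85 of them lower in the liver (61.6%, against 26.8%) and 7 higher (5.07%, against 22.9%). The median log2 difference was -1.24 over the members and 0.00 over all peaks. Between Liv_OFF and Panc_OFF, 110 were called (79.7%, against 58.5%), 105 lower in the liver (76.1%, against 32.3%) and 5 higher (3.62%, against 26.2%), with a median of -1.75 against -0.05. Lung_OFF and Panc_OFF differed far less often, at 27 members (19.6%, against 17.3%). Of these, 21 were lower in the lungs (15.2%, against 10.7%) and 6 higher (4.35%, against 6.59%).

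Without Lung_OFF mouse 1, which had the highest value of its group at 77 of the 138 members, 79 members were called between Liv_OFF and Lung_OFF, 74 of them lower in the liver, where 41.2% of all peaks were called. The start-site peaks of 6 endothelial markers summed to 1025 in that mouse and to 298 and 252 in the other Lung_OFF mice. Most of that sum was Cdh5, the gene of vascular cadherin, at 697, 129 and 54.3, and Pecam1 and Vwf were also highest in mouse 1. Kdr (14.7, 16.3 and 22.4) and Tie1 (22.1, 51.1 and 37.9) were lowest there, and Tek lay between (33.1, 27.2 and 56.0). Fibroblast markers, described with Prrx1, were lower in the liver as well. The part of either cell type in these counts was not tested. Between Lung_OFF and Panc_OFF, 15 members were called without Panc_OFF mouse 3 (8.56% of all peaks), 16 without Panc_OFF mouse 2 (10.7%), none of them higher in the lungs, and 19 without Lung_OFF mouse 2 (12.9%). In all, 79 members (57.2%) were called lower in Liv_OFF than in both other organs, against 20.8% of all peaks, and 21 (15.2%) were called higher in Panc_OFF than in both, against 9.27%, of which 11 were at Prrx1. Without overlap, the Liv_OFF mice were below all Lung_OFF mice at 100 members and above all at 9 (79.0%, against 65.9% of all peaks), and below all Panc_OFF mice at 112 and above all at 8 (87.0%, against 77.1%). Lung_OFF mice were below all Panc_OFF mice at 42 members and above all at 16 (42.0%, against 32.1%). The comparisons share mice, since both liver counts use the same Liv_OFF pair and the restoration comparisons below use the same Smad4-off mice.

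**Figure D1:**
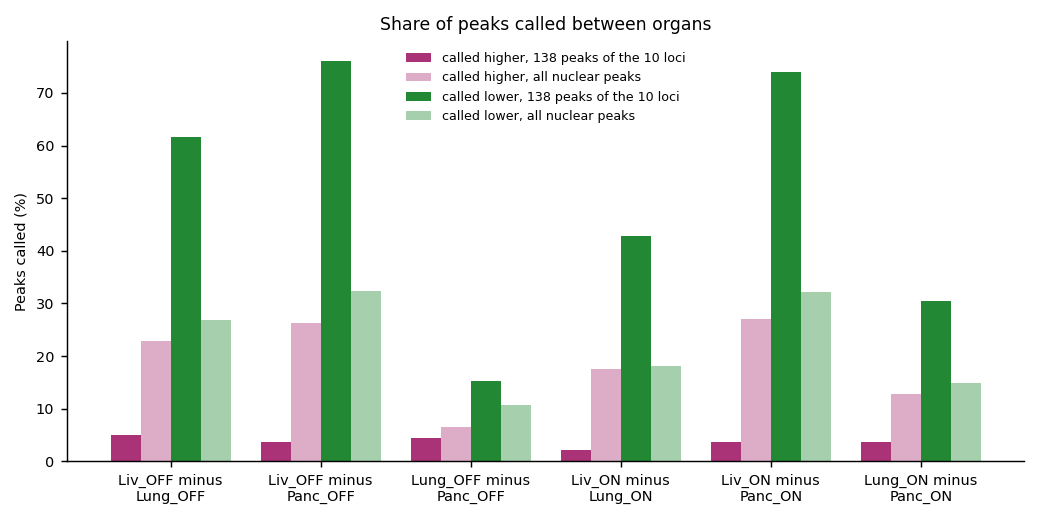
Share of peaks called higher (magenta) or lower (green) in each comparison of 2 organs, in percent, for the 138 peaks of the 10 loci (dark bars) and for all 136630 nuclear peaks (pale bars). In every comparison that includes the liver, the dark green bar is more than 2 times the pale one, for example 61.6% against 26.8% for Liv_OFF minus Lung_OFF.

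The plot of called shares by comparison also shows the Smad4-restored groups. There 62 members were called between Liv_ON and Lung_ON (44.9%, against 35.8% of all peaks), 59 of them lower in the liver (42.8%, against 18.2%). Without Liv_ON mouse 2 this count fell to 25, where 13.5% of all peaks were called. Between Liv_ON and Panc_ON 107 were called (77.5%, against 59.4%), 102 of them lower in the liver (73.9%, against 32.2%). Between Lung_ON and Panc_ON 47 were called (34.1%, against 27.8%), 42 of them lower in the lungs (30.4%, against 14.9%). This count was 30 without Panc_ON mouse 1 (18.4% of all peaks) and 31 without Lung_ON mouse 2 (21.1%) or Lung_ON mouse 3 (19.6%). Without Panc_ON mouse 3 it was 52, with 103 between Liv_ON and Panc_ON, and the shares of all peaks under this fit are not given here. The count between Liv_ON and Panc_ON fell further when another library was left out, and its range is given below with the other leave-one-out ranges. Between the restored groups the values did not overlap at 67.4% of members for liver and lungs (59.8% of all peaks), 84.1% for liver and pancreas (71.4%) and 51.4% for lungs and pancreas (38.2%).

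Start-site peaks differed less than distal ones. Of the 10 start-site peaks, 4 were called lower in Liv_OFF than in Lung_OFF, those of Twist1, Twist2, Prrx1 and Fn1, where 10.1% of the start-site peaks of all genes were, and none was called higher. Of the 128 other members 81 were called lower (63.3%, against 29.3% of all other peaks). Among these the share was 31 of 41 within 25 kb of the start site (median log2 difference -1.66) and 50 of 87 beyond it (median -1.21). Against Panc_OFF, 6 start-site peaks were called lower in Liv_OFF (12.6% of all genes' start-site peaks were), with Zeb2 and Vim added to the same 4.

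**Figure D2:**
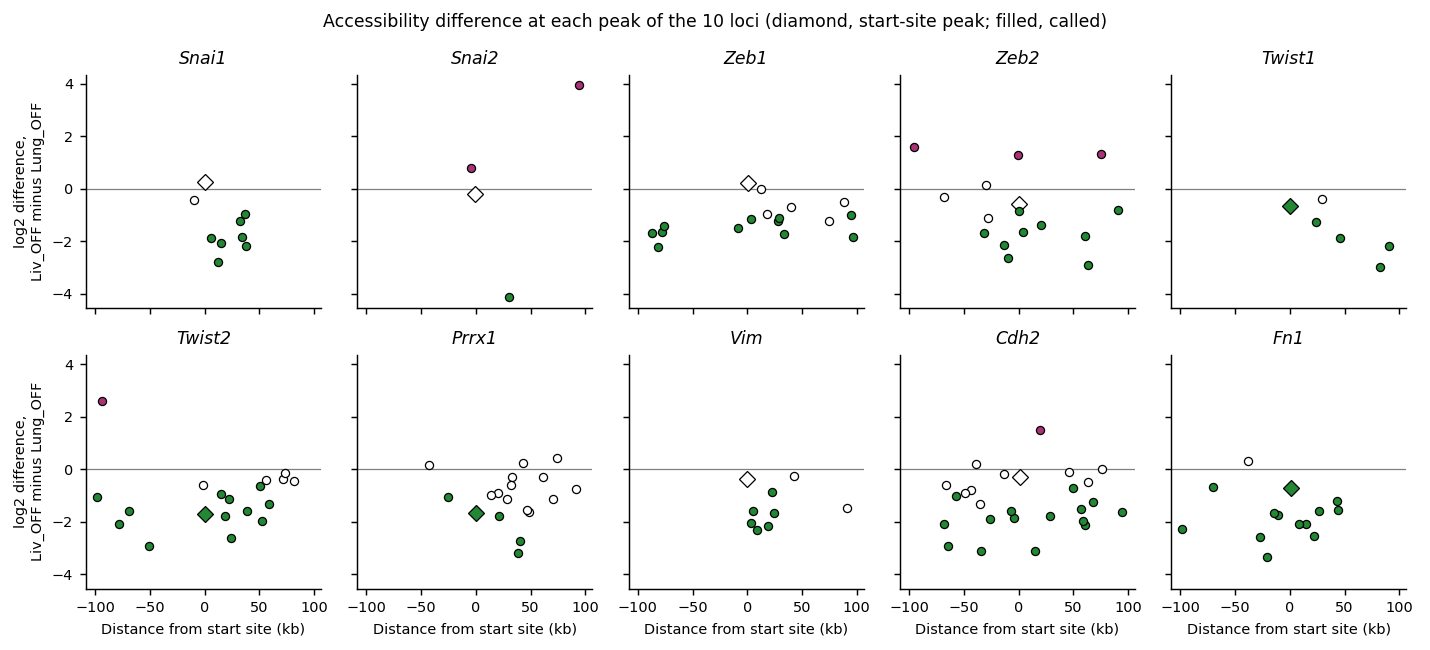
Log2 difference in accessibility between Liv_OFF and Lung_OFF (vertical axis) for each of the 138 peaks against its distance from the start site in kb (horizontal axis), in a panel per gene. Diamonds are start-site peaks, filled symbols are called peaks, green lower and magenta higher in the liver. Most filled points lie below 0 on both sides of the start site, at Fn1 13 of 14, and 7 lie above it.

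Snai1 encodes SNAIL, a zinc-finger repressor of E-cadherin and often among the first EMT factors to respond to TGF-beta. Its start-site peak (chr2:167537691-167538546) was at 795 and 830.4 normalised counts in Liv_OFF, 686, 674 and 699 in Lung_OFF and 609, 683 and 710.3 in Panc_OFF. The liver mice were the highest, but the difference was not called (log2 difference 0.24, SE 0.12, adjusted p = 0.112) and its sign changed with quantile normalisation or a correction for GC content. The distal peaks went the other way, and 7 of the 9 members were called lower in Liv_OFF than in Lung_OFF. The one with the smallest p (chr2:167552353-167553750, 14.9 kb downstream) was at 185 and 171 in Liv_OFF, 806, 567 and 884 in Lung_OFF and 640.5, 833.5 and 678 in Panc_OFF. Both liver mice lay below all the others without overlap, with a log2 difference of -2.05 (SE 0.17) from the lungs and -1.99 (SE 0.17) from the pancreas. The nearby peak at +12.4 kb whose sequence is shown above, chosen after its values were seen, was at 9.87 and 15.3 in Liv_OFF against 142, 53.2 and 99.1 in Lung_OFF.

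Snai2 encodes SLUG, the related repressor also known from neural crest and basal epithelial cells. Its start-site peak (chr16:14703766-14706694), which dominates the locus, was at 996 and 1076 in Liv_OFF, 1144, 1195 and 1242 in Lung_OFF and 1333, 1384 and 1483 in Panc_OFF, and was not called in any comparison of organs with Smad4 off. Of the 4 members, 2 were called higher and 1 lower in Liv_OFF than in Lung_OFF, where 22.9% and 26.8% of all peaks were. The median log2 difference over the 4 was 0.29. The 2 distal peaks singled out by their p moved in opposite directions. At +30.5 kb (chr16:14735952-14736779) the counts were 0 and 2.79 in Liv_OFF, 45.1, 9.78 and 80.1 in Lung_OFF and 60.6, 94.7 and 110.2 in Panc_OFF. The peak was near 0 in both liver mice, with a log2 difference of -4.14 (SE 0.69) from the lungs. At +94.5 kb (chr16:14800009-14800782) the counts were 133 and 371 in Liv_OFF, 14.7, 17.4 and 9.48 in Lung_OFF and 16.2, 32.2 and 13.0 in Panc_OFF. Here the liver mice stood far above the others, by 3.95 (SE 0.65) against the lungs and 3.48 (SE 0.65) against the pancreas. The peak was also open in Liv_ON, at 299 and 324.

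**Figure D3:**
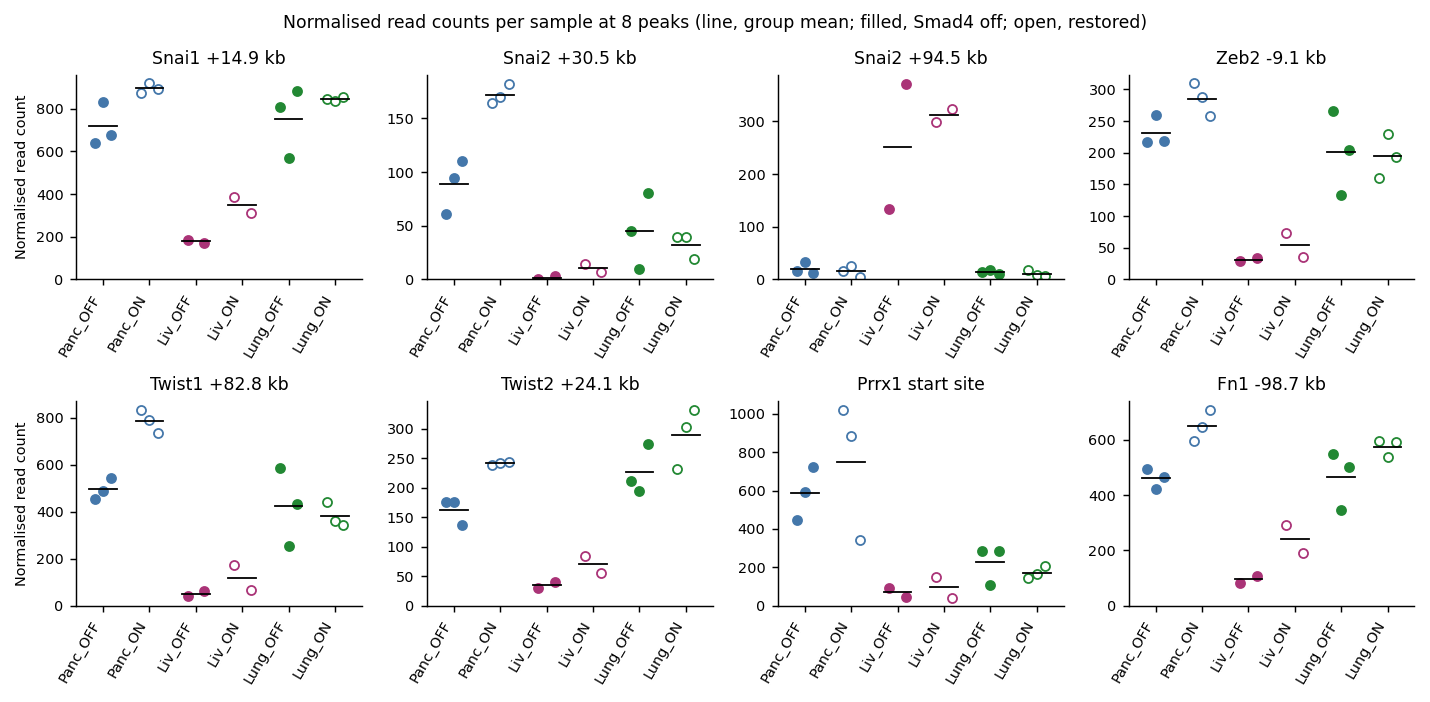
Normalised read count (vertical axis, linear, starting at 0) at 8 peaks of the EMT loci in each of the 16 mice, by group; filled symbols are Smad4-off and open symbols Smad4-restored mice, and the line is the group mean. The liver mice (magenta) are the lowest at Snai1 +14.9 kb, Zeb2 -9.1 kb, Twist1 +82.8 kb, Twist2 +24.1 kb and Fn1 -98.7 kb and the highest at Snai2 +94.5 kb.

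Zeb1 encodes a zinc-finger and homeodomain repressor of E-cadherin and of the miR-200 genes. Its start-site peak (chr18:5591053-5594100) was at 1008 and 882 in Liv_OFF, 816, 902 and 737 in Lung_OFF and 864, 949.6 and 931 in Panc_OFF, overlapping between the organs and not called. Of the 17 members, 11 were called lower in Liv_OFF than in Lung_OFF and none higher. The strongest lay at -81.6 kb (chr18:5509703-5510911), at 112 and 162 in Liv_OFF, 905, 455 and 629 in Lung_OFF and 640.5, 700.4 and 815 in Panc_OFF. Both liver mice were far below the lowest of the others (log2 difference -2.23, SE 0.23, adjusted p = 1.52e-05 against the lungs).

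Zeb2 encodes the second ZEB factor, which binds SMADs. Of its 16 members, 9 were called lower and 3 higher in Liv_OFF than in Lung_OFF. No other of the 10 loci had as many called higher, while by share Snai2 had more, at 2 of 4. The start-site peak (chr2:45107929-45111404) was at 852 and 784 in Liv_OFF, 1227, 1157 and 1264 in Lung_OFF and 1373, 1326 and 1509 in Panc_OFF. The liver mice were below all the others, by -0.57 (SE 0.12) against the lungs, just short of the threshold of 0.58 and so not called (with TMM factors the difference was -0.64 and called), and by -0.78 (SE 0.12) against the pancreas, which was called. At -9.1 kb (chr2:45126066-45127009) the counts were 28.4 and 33.4 in Liv_OFF and 266, 134 and 205 in Lung_OFF, without overlap (log2 difference -2.62, SE 0.31, adjusted p = 3.26e-05). At -95.6 kb the order was inverted, with 104 and 48.8 in Liv_OFF and 19.3, 34.8 and 18.1 in Lung_OFF (log2 difference 1.59, SE 0.46, adjusted p = 0.0105), a call that was lost without Liv_OFF mouse 1 (log2 difference 1.05, adjusted p = 0.164). A second peak at the promoter (chr2:45113036-45113694) was at 91.4, 121.5 and 83.3 in Panc_OFF and 15.7, 16.3 and 6.03 in Lung_OFF, the smallest p of any member in that comparison (log2 difference -2.96, SE 0.46, adjusted p = 0.00103).

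The wider region was also less open in the liver around several of the genes. Over the 280 peaks within 5 Mb of Zeb2 that are not members, the median log2 difference between Liv_OFF and Lung_OFF was -0.83, and over the 464 around Vim it was -0.59. It was between -0.35 and 0.27 around the other 8 genes, 0.00 around Fn1 and 0.10 around Snai1. Between Liv_OFF and Panc_OFF it was -0.91 around Zeb2, -0.87 around Vim, -0.76 around Zeb1, -0.70 around Prrx1 and -0.55 around Twist1, and between -0.33 and 0.39 around the other 5. The Zeb2 start-site difference of -0.57 was thus smaller than the median of its surroundings, while the median over members was -0.99 at Zeb2, -1.60 at Vim, -1.72 at Fn1 and -1.84 at Snai1. The part of regional shifts in the result was not tested.

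Twist1 encodes a basic helix-loop-helix factor of the mesoderm. Its start-site peak (chr12:33956699-33959333) was at 717 and 669 in Liv_OFF, 1321, 943 and 1074 in Lung_OFF and 1385, 1385 and 1418 in Panc_OFF, lower in the liver by -0.67 (SE 0.21) against the lungs and -1.01 (SE 0.21) against the pancreas. The former call was lost without Lung_OFF mouse 1 (log2 difference -0.54, adjusted p = 0.0586). The peak with the smallest p was 82.8 kb downstream (chr12:34039471-34041481), at 40.7 and 61.3 in Liv_OFF, 586, 254 and 431 in Lung_OFF and 456, 489 and 544.5 in Panc_OFF. Neither liver mouse came near the other organs (log2 difference -2.98, SE 0.34, adjusted p = 2.66e-05 against the lungs), and 5 of the 6 members were called lower there.

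Twist2, a close relative of Twist1 also known from dermal fibroblasts, had the most members called higher in the lungs than in the pancreas. Its start-site peak (chr1:91800574-91802844) was at 1022, 728 and 974.5 in Lung_OFF, 656, 350.2 and 629.7 in Panc_OFF and 317 and 239.6 in Liv_OFF. The 3 organs did not overlap, and each step was called, 0.77 (SE 0.23) for the lungs over the pancreas (adjusted p = 0.0391) and -0.93 (SE 0.26) for the liver under the pancreas. The step between lungs and pancreas was lost without Panc_OFF mouse 2 (0.48, adjusted p = 0.194) or Lung_OFF mouse 3 (0.72, adjusted p = 0.102). Of the 19 members, 4 were called higher in Lung_OFF than in Panc_OFF and none lower, where 6.59% of all peaks were called higher. Without Panc_OFF mouse 2 no member of any locus was called higher in this comparison. Besides the start-site peak the 3 strongest included -1.7 kb (log2 difference 1.63, SE 0.43, adjusted p = 0.0212) and +52.8 kb (log2 difference 1.81, SE 0.59, adjusted p = 0.0546), both low, at no more than 100.5 normalised counts in any mouse. The call at -1.7 kb was lost without Panc_OFF mouse 2 (1.20, adjusted p = 0.111), and that at +52.8 kb without any one of the Panc_OFF mice or Lung_OFF mouse 2 (1.45 to 1.95).

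Against the liver, 13 of the 19 Twist2 members were called lower in Liv_OFF than in Lung_OFF and 1 higher. At +24.1 kb, in the Twist2 intron (chr1:91825164-91825991), the counts were 30.9 and 40.4 in Liv_OFF, 211, 194.5 and 275 in Lung_OFF and 175, 175 and 136 in Panc_OFF. The liver was lowest without overlap (log2 difference -2.63, SE 0.25, adjusted p = 9.79e-06 against the lungs). At -93.5 kb (chr1:91707834-91708110), the peak with CAGGTG at 2 places, the counts were 48.1 and 46.0 in Liv_OFF, 4.60, 13.0 and 5.17 in Lung_OFF and 4.27, 6.25 and 7.41 in Panc_OFF. There the liver was the highest (log2 difference 2.61, SE 0.58, adjusted p = 0.00205 against the lungs), and Liv_ON stood at 26.8 and 32.5.

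Prrx1, a homeobox gene of limb and craniofacial mesenchyme and an EMT inducer, was most open in the pancreas. Of its 18 members, 17 were called lower in Liv_OFF than in Panc_OFF and 11 were called lower in Lung_OFF than in Panc_OFF, where 10.7% of all peaks were. Between liver and lungs the called shares were near those of all peaks. In Liv_OFF 5 members were called lower than in Lung_OFF (27.8%, against 26.8%), with a median log2 difference of -1.01 over the 18. In Liv_ON 3 were called lower than in Lung_ON (16.7%, against 18.2%). The start-site peak (chr1:163311909-163315041) was at 447.5, 590.5 and 722 in Panc_OFF, 286, 106.5 and 288 in Lung_OFF and 93.8 and 44.6 in Liv_OFF. The 3 organs did not overlap, with log2 differences of -3.13 (SE 0.54) for the liver and -1.48 (SE 0.49) for the lungs against the pancreas. The latter call was lost without Panc_OFF mouse 2, Panc_OFF mouse 3 or Lung_OFF mouse 2, the last giving -1.0 (adjusted p = 0.22), and the liver to lung call was lost without Liv_OFF mouse 2 (-1.13, adjusted p = 0.211). An intronic peak at +28.1 kb was at 90.5, 108 and 183 in Panc_OFF and 26.7, 7.61 and 13.8 in Lung_OFF (log2 difference -3.01, SE 0.54, adjusted p = 0.00226), and one at +73.9 kb was at 37.6, 67.9 and 79.6 and 2.76, 3.26 and 2.58 (log2 difference -3.96, SE 0.63, adjusted p = 0.00122).

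The Prrx1 sum moved with markers of another cell type, though not within every group. Summed over the 18 members it was 1458, 1655 and 2360 in Panc_OFF, 3060, 2548 and 1499 in Panc_ON, 1174, 503 and 782 in Lung_OFF, 819, 551 and 582 in Lung_ON, 289 and 270.3 in Liv_OFF and 667 and 226.5 in Liv_ON. The start-site peaks of 8 fibroblast markers (Col1a1, Col1a2, Col3a1, Pdgfra, Pdgfrb, Dcn, Lum and Thy1) summed to 3286, 3503 and 4164 in Panc_OFF, 5268, 4379 and 3148 in Panc_ON, 2750, 1811 and 2224 in Lung_OFF and 1596 and 1604 in Liv_OFF. Mice kept the same order by both sums in Panc_OFF, Panc_ON, Lung_OFF and Liv_ON, and Panc_ON mouse 3 was the lowest of its group in both. The order differed in Liv_OFF and in Lung_ON, where the markers summed to 2119, 2005 and 1906. This was not particular to Prrx1. The Twist1 locus sum kept the order of the markers in every group but Liv_OFF. The Zeb1 locus sum kept it in the same groups as Prrx1. All 8 markers were called lower in Liv_OFF than in Panc_OFF (12.6% of all start-site peaks were) and 4 of 8 in Lung_OFF than in Panc_OFF (4.33%). Between Liv_OFF and Lung_OFF 2 of 8 were called lower in the liver, against 10.1% of all start-site peaks. For Thy1 the peak counted was the nearest one, 2711 bp from the start site. Lum, which encodes the collagen-binding proteoglycan lumican, was at 115 to 272 in Panc_OFF and 5.43 to 6.44 in Lung_OFF, and no marker was at 0 in any mouse. The cells had been gated on mKate2, and the part of fibroblast chromatin in the Prrx1, Twist1 and Zeb1 results was not tested.

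**Figure D4:**
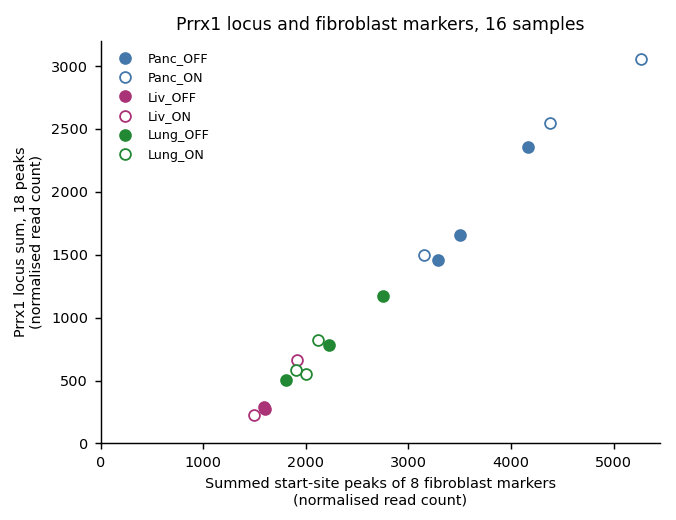
Prrx1 locus sum (vertical axis, 18 peaks) against the summed start-site peaks of 8 fibroblast markers (horizontal axis), both in normalised read counts, 1 point per mouse; filled symbols are Smad4-off and open symbols Smad4-restored. Panc mice lie at the upper right, with Prrx1 sums from 1458 to 3060, and liver mice at the lower left, from 226.5 to 667.

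Vim encodes vimentin, the intermediate filament of mesenchymal cells. Its start-site peak (chr2:13571863-13576675) was at 2423 and 2254 in Liv_OFF, 3037, 2958 and 3014 in Lung_OFF and 3679, 3351 and 3697 in Panc_OFF. The 3 organs did not overlap, but the difference was called only against the pancreas (log2 difference -0.61, SE 0.10, adjusted p = 0.000102) and was under the threshold against the lungs (log2 difference -0.36, SE 0.10, adjusted p = 0.00591). The former call was lost without Liv_OFF mouse 2 (-0.56), and with quantile normalisation the latter was called (-0.76). The peak +8.8 kb from the start site (chr2:13580615-13585528) changed more, at 51.8 and 160.2 in Liv_OFF and 588, 414 and 386 in Lung_OFF (log2 difference -2.30, SE 0.39, adjusted p = 0.000315), and 6 of the 9 members were called lower.

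Cdh2 encodes N-cadherin, which replaces E-cadherin in the cadherin switch of EMT. Its start-site peak (chr18:16806525-16810110) was at 1358 and 1317 in Liv_OFF and 1677, 1682 and 1602 in Lung_OFF, lower in both liver mice but not called (log2 difference -0.31, SE 0.10, adjusted p = 0.0217). Of the 26 members 15 were called lower in Liv_OFF than in Lung_OFF and 1 higher. An intronic peak at +68.2 kb (chr18:16740465-16741579) was at 233 and 170 in Liv_OFF and 554, 412 and 466 in Lung_OFF (log2 difference -1.25, SE 0.21, adjusted p = 0.000297). The one called higher, at +20.0 kb, was low in all mice and its call was lost when any of 4 libraries was left out.

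Fn1 encodes fibronectin, a matrix glycoprotein and a TGF-beta target. Of its 14 members, 13 were called lower in Liv_OFF than in both Lung_OFF and Panc_OFF. The start-site peak (chr1:71649659-71654551) was at 1133 and 752 in Liv_OFF, 1494, 1480 and 1589 in Lung_OFF and 2046, 2034 and 1960 in Panc_OFF, with no overlap between organs. It was lower in the liver by -0.72 (SE 0.16) against the lungs, a call lost without Liv_OFF mouse 2 (-0.42, adjusted p = 0.061), and by -1.12 (SE 0.16) against the pancreas. Far upstream at -98.7 kb (chr1:71750800-71752917) the counts were 82.7 and 109 in Liv_OFF, 549.5, 347 and 503 in Lung_OFF and 495, 422.5 and 467 in Panc_OFF. Here too both liver mice were below all the others (log2 difference -2.26, SE 0.21, adjusted p = 9.65e-06 against the lungs, log2 difference -2.27, SE 0.21, adjusted p = 5.22e-06 against the pancreas).

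Summed over each locus and fitted with the sums of all 17795 loci that had a peak, 9 of the 10 loci were called lower in Liv_OFF than in Lung_OFF (11.8% of all loci were) and the same 9 were called lower than in Panc_OFF (13.0%), while the median log2 difference over all loci was 0.30 in each case. The exception was Snai2, at 1175 and 1512 in Liv_OFF, 1243, 1252 and 1356 in Lung_OFF and 1441, 1561 and 1642 in Panc_OFF, where the liver mice overlapped those of both other organs. The largest log2 difference from the lungs was that of Prrx1 (-1.47, SE 0.43, adjusted p = 0.0111), followed by Fn1 (-1.08, SE 0.13, adjusted p = 4.32e-05), Twist1 (-1.03, SE 0.23, adjusted p = 0.00211), Twist2 (-1.01, SE 0.11, adjusted p = 3.11e-05) and Snai1 (-0.97, SE 0.13, adjusted p = 8.02e-05), where each differed from the next by less than its standard error. Zeb2, Cdh2, Vim and Zeb1 followed, from -0.70 to -0.59. By single peaks, 5 of the 18 Prrx1 members were called lower in this comparison (27.8%, against 26.8% of all peaks). Without Lung_OFF mouse 1, the loci of Zeb1, Vim and Cdh2 were no longer called (-0.45, -0.55 and -0.58), which left 6. Without Liv_OFF mouse 2, Zeb1 (-0.53) and Cdh2 (-0.58) were not called. With peaks within 25 kb only, 7 loci were called lower against each organ, since Zeb1 (0.05 and -0.14) and Cdh2 (-0.38 and -0.50) were not. The Twist2 call against the pancreas was lost without Panc_OFF mouse 1 (-0.52). Between Lung_OFF and Panc_OFF, Prrx1 was the only locus called (-1.21, SE 0.39, adjusted p = 0.091) and was lost when any of 10 libraries was left out (-1.35 to -0.90).

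With Smad4 restored, 6 of the 10 locus sums were called lower in Liv_ON than in Lung_ON (7.89% of all loci were). Those of Prrx1 (-0.72), Vim (-0.54), Zeb2 (-0.45) and Snai2 (0.17) were not. Against Panc_ON 8 were called lower (13.9% of all loci), all but Snai2 (-0.22) and Twist2 (-0.25). Between Lung_ON and Panc_ON only Prrx1 was called (-1.82, SE 0.39, adjusted p = 0.00602, where 6.62% of all loci were called lower).

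The second question was whether restoring Smad4 changed the EMT loci. Few members were called, mostly gains in the liver. In the liver 5 members were called (3.62%, against 0.55% of all peaks), all higher in Liv_ON (0.462% of all peaks were called higher and 0.0886% lower), with a median log2 difference of 0.39 over the members and 0.02 over all peaks. In the pancreas 1 member was called (0.725%, against 3.42%), lower in Panc_ON (as were 3.06% of all peaks), with medians of 0.26 and 0.04. In the main fit 0.364% of all peaks were called higher in Panc_ON. Other fits called mostly higher members there, 6 higher and 1 lower with only the groups compared, 4 and 1 with a replicate block in the lungs, 3 and 2 with quantile normalisation and 8 and 2 by DESeq2. The shares of all peaks called under these fits are not given here, so these counts cannot be set against a background. The main count was 0 without any one of the pancreas mice other than Panc_ON mouse 3. In the lungs limma called 0 members (0.00366% of all peaks, 0.00146% higher and 0.0022% lower), 1 had an unadjusted p under 0.05, and edgeR and DESeq2 also called 0. Averaged over the organs 16 members were called (11.6%, against 6.62%), 14 of them higher (10.1%, against 3.61%) and 2 lower.

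The liver result rested on 2 mice per group. Shares of all peaks called when a mouse was left out are not given in this paragraph, so those counts have no background. The 2 Liv_ON mice lay above both Liv_OFF mice at 51 members and below both at 16, together 48.6% against 44.6% of all peaks. Liv_ON mouse 1 was the higher of its pair at most members, and without it 0 members were called in the liver, where 32 of the 138 had an unadjusted p under 0.05 with all mice. None was called without Liv_OFF mouse 1 either, and 10 were without Liv_ON mouse 2. For the average over organs 7 members were called without Liv_ON mouse 1, 4 of them higher, and 8 without Liv_OFF mouse 1. In Liv_ON mouse 1 all 8 fibroblast markers were higher than in Liv_ON mouse 2 and 6 were above both Liv_OFF mice, with sums of 1910 and 1499 in Liv_ON and 1596 and 1604 in Liv_OFF (Col3a1 at 72.2 and 8.12 in Liv_ON, Thy1 at 97.8 and 33.5). The summed start-site peaks of 19 epithelial genes were 63570 in that mouse, 80760 in the other and 80290 and 86620 in Liv_OFF. The part of either in the liver result was not tested.

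The 5 gains in the liver were at Fn1, Snai1, Zeb1 and Zeb2. Fn1 -98.7 kb rose from 82.7 and 109 in Liv_OFF to 292 and 189.9 in Liv_ON (log2 difference 1.30, SE 0.23, adjusted p = 0.0435), which was still below all Lung_ON mice (595, 537 and 592.5). Snai1 +14.9 kb rose from 185 and 171 to 388 and 313 (log2 difference 0.96, SE 0.19, adjusted p = 0.0538), against 844.5, 837 and 857 in Lung_ON. Zeb2 +90.6 kb rose from 347 and 260.5 to 479 and 668 (log2 difference 0.91, SE 0.18, adjusted p = 0.0624). Both mice of each restored pair were above both Smad4-off mice, and at Fn1 and Snai1 the restored liver stayed below every lung and pancreas mouse. The other 2, Zeb1 -81.6 kb (log2 difference 1.19, SE 0.25, adjusted p = 0.0707) and Fn1 +8.7 kb (log2 difference 1.68, SE 0.38, adjusted p = 0.0894), were named after their values were seen. All 5 were lost without Liv_ON mouse 1 or Liv_OFF mouse 1. Snai1 +14.9 kb (0.91) and Zeb2 +90.6 kb (0.70) were also lost without Liv_OFF mouse 2, and Zeb2 +90.6 kb without Liv_ON mouse 2 (0.67) or Lung_ON mouse 2 (0.91, adjusted p = 0.101).

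**Figure D5:**
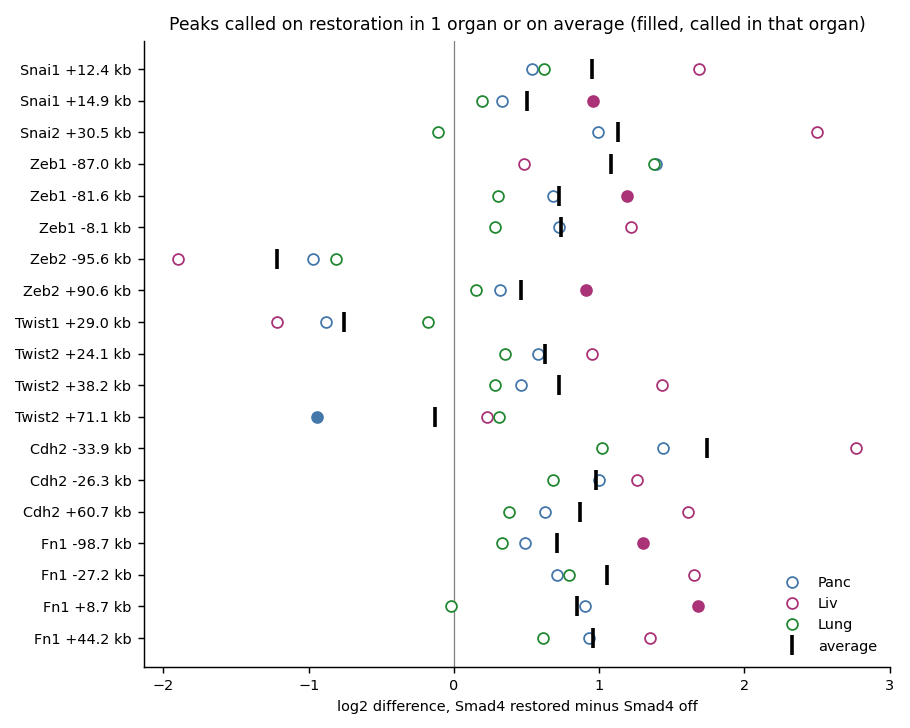
Log2 difference on Smad4 restoration (horizontal axis) at the 19 members called in 1 organ or on average (rows), for pancreas, liver and lungs (circles, filled when called in that organ) and averaged over organs (bar). The liver circle is the farthest to the right at most of the peaks that rose, for example 1.30 at Fn1 -98.7 kb against an average of 0.71.

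In the average over organs the smallest p values were at Fn1 -98.7 kb (log2 difference 0.71, SE 0.12, adjusted p = 0.00608), Zeb1 -81.6 kb (log2 difference 0.72, SE 0.13, adjusted p = 0.0079) and Cdh2 -33.9 kb (log2 difference 1.74, SE 0.36, adjusted p = 0.0148). At Zeb1 -81.6 kb the pancreas went from 640.5, 700.4 and 815 to 1193, 1138 and 1109 and the liver from 112 and 162 to 363 and 262, both without overlap, while the lungs overlapped (905, 455 and 629 and 807.5, 819.5 and 734). The 2 members that fell on average were Zeb2 -95.6 kb (log2 difference -1.22, SE 0.26, adjusted p = 0.0156) and Twist1 +29.0 kb (log2 difference -0.76, SE 0.19, adjusted p = 0.0291), the latter lost without Liv_OFF mouse 1 (-0.70, adjusted p = 0.102). At Zeb2 -95.6 kb every Smad4-restored mouse of an organ was below every Smad4-off mouse of that organ, with 104 and 48.8 against 22.1 and 15.2 in the liver. The single pancreas call, Twist2 +71.1 kb, went from 143.5, 167 and 135 to 72.9, 79.2 and 77.4 (log2 difference -0.94, SE 0.25, adjusted p = 0.0679), a separation of the groups without overlap. The call held without Panc_ON mouse 3, the library that stood apart, and was lost without any one of the other 5 pancreas mice.

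No locus sum was called on restoration in any organ. For Fn1 in the liver it went from 1485 and 1138 to 2187 and 1743 (0.59, SE 0.14, adjusted p = 0.21), without overlap. For Snai1 it went from 1704 and 1788 to 2359 and 2023 (0.32, SE 0.14, adjusted p = 0.407) and for Twist1 from 821 and 780.2 to 984 and 473, where the 2 restored mice fell on either side of the Smad4-off pair. The differences between the organs in the restoration effect were tested as interactions. By limma 0 members were called in each of the 3 (as were 0.0% of all peaks), with 17 of 138 at an unadjusted p under 0.05 for liver against lungs, 9 for liver against pancreas and 9 for lungs against pancreas, so a change called in the liver and not in the lungs is not shown to differ between them. DESeq2 called 2 members for lungs against pancreas, and the share of all peaks it called there is not given here.

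Sequence features went with the direction between Liv_OFF and Lung_OFF as they did over all peaks. TGANTCA was in the central 200 bp of 41 of the 85 members called lower (48.2%), 8 of the 46 not called (17.4%) and 0 of the 7 called higher. Over all peaks the shares were 44.9%, 24.9% and 15.6%. CAGGTG was in 10 of 85 (11.8%), 6 of 46 (13.0%) and 2 of 7 (28.6%) of these members, against 7.69%, 12.0% and 21.4% of all peaks. The SMAD-type CAGACA was in 14 of the 85 (16.5%, against 20.1%) and the RUNX-type TGTGGT in 19 (22.4%, against 25.1%). The members called lower thus held AP-1-type matches about as often as other peaks that were lower in the liver.

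The epithelial counterpart of the programme moved the opposite way between organs. Of 19 genes of epithelial junctions, keratins and their regulators, counted by their start-site peaks, 18 were called higher in Liv_OFF than in Lung_OFF (20.9% of all start-site peaks were; median log2 difference 1.41) and 19 than in Panc_OFF (median 1.53). Grhl2, a transcription factor that maintains epithelial identity, differed by 3.34 between liver and lungs, Esrp1, an epithelial splicing regulator, by 2.68 and Cdh1, which encodes E-cadherin, by 0.91. Tjp1, a tight junction scaffold, was the one not called (0.52). On restoration only Elf3 was called, lower in the pancreas (-0.73).

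Other mesenchymal genes were mixed at the peaks nearest to their start sites. That peak lay 7513 bp from the start site at Mmp2 and 2005 bp at Postn. Of 16, 4 were called lower in Liv_OFF than in Lung_OFF (Tnc, Sparc, Axl and S100a4, from -1.20 to -0.62, with a list median of -0.36, against 10.1% of all start-site peaks), 10 lower than in Panc_OFF with 1 higher (12.6% of all were lower), and 6 lower in Lung_OFF than in Panc_OFF (4.33%). The last included Cdh11 (-3.75) and Mmp2 (-3.61), genes also expressed in fibroblasts, in the comparison where 4 of the 8 fibroblast markers were lower. Their part in this result was not tested. Of 12 genes of TGF-beta signalling, 4 were called higher in Liv_OFF than in Lung_OFF, among them the receptor gene Tgfbr2 (0.60) and Smad2 (0.63), and none lower (median 0.42). Of all start-site peaks 20.9% were called higher in this comparison, so the count is not far from that share. Against Panc_OFF 3 were called higher in Liv_OFF and 1, Tgfbr3 (-0.61), lower. None of the 12 was called on restoration in any organ.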

How the data were processed

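Bulk ATAC-seq of 16 sorted samples in 6 groups was analysed. The authors trimmed the reads, mapped these with Bowtie2 on mm10, ran MACS2, merged the peaks into 1 atlas, counted reads with featureCounts and deposited normalised counts per peak, a signal in which raw counts are divided by DESeq2 size factors. Duplicate removal and a shift of reads for the Tn5 cut, which could change the signal at a peak, are not given in the sources used here, nor whether coordinates start at 0 or 1, so these are printed as deposited. A ductal marker gene and an allele of the mouse model are not reported here. The mitochondrial row (1.43 to 3.56% of reads) was left out. Whole reads were recovered for 100% of values (tolerance 0.001), with 36 to 76 reads at the median peak of a sample, which limits precision at low peaks. The members and gene lists were chosen with earlier results of these data known.

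The main test was limma 3.58.1 (R 4.3.3, lmFit and eBayes with trend and robust set), on log2 values with a pseudocount of 1, for all 136630 nuclear peaks and all samples as 6 group means, with Benjamini-Hochberg adjustment over these peaks. Locus sums add all member peaks of a gene. The start-site peak of any gene is the nearest peak assigned to it, which at some genes lies off the start site. Peaks named singly were each start-site peak, the called peak of smallest p in each direction per gene between Liv_OFF and Lung_OFF, and up to 3 called members of smallest p in each direction in the other comparisons with Smad4 off and on restoration. Alternatives were edgeR 4.0.16 and DESeq2 1.42.0 on the recovered reads, another pseudocount, a filter on low peaks, other scalings, GC correction, stricter thresholds, a 25 kb assignment, replicate blocks and leaving out each library. Only limma on peaks was run on simulated data, for Liv_OFF minus Lung_OFF alone. The alternatives, the locus sums and the other comparisons were not tested in this way. Labels number the mice in each group. Deviations of same-numbered samples from their group means correlated at 0.491, 0.124 and 0.214 in the lungs, at -0.33, 0.027 and -0.33 in the pancreas and at 0.083 in the liver. Differently numbered samples were not correlated for comparison, so these values do not show a pairing in any organ. The main test treated the mice as unpaired.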

Additional observations from a re-analysis of the deposited data

Results flagged for a closer look

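Among the peaks named singly, the mice moved in opposite directions on Smad4 restoration in different organs at 2, without overlap between the groups of either organ. Over all peaks the groups did not overlap, in either direction, at 44.6% in the liver, 25.5% in the pancreas and 10.7% in the lungs. How many of all peaks moved in opposite directions in this way was not counted. At the Zeb1 start-site peak, 712 bp from the start site, the log2 difference was 0.24 in the lungs, where all restored mice were above all Smad4-off mice, and -0.30 in the liver, where all were below. At the Twist2 peak 71129 bp from its start site the difference was -0.94 in the pancreas and 0.23 in the liver. The interactions were fitted with limma over all peaks, and at neither peak was the difference between the organs called.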

How the results depend on the processing

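Of 100 single values (a named peak or locus in 1 comparison), 52 kept their direction and side of the threshold under all 29 alternatives. Over the alternatives 2693 values did so, 92 lost and 18 gained a call, and 29 changed sign, in each case for a difference that was not called or, at the Zeb1 locus, with only peaks within 25 kb. The cause was not tested where none is given. Shares of all peaks or loci called under an alternative are printed for some counts only, here and above. A count without such a share cannot be set against a background and is not a result about the members.

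Leaving out each library, the called members ranged from 74 to 97 (Liv_OFF minus Lung_OFF), 97 to 111 (Liv_OFF minus Panc_OFF), 15 to 29 (Lung_OFF minus Panc_OFF), 25 to 66 (Liv_ON minus Lung_ON), 72 to 109 (Liv_ON minus Panc_ON) and 30 to 52 (Lung_ON minus Panc_ON). On restoration they ranged from 0 to 4 in the pancreas, 0 to 11 in the liver, 7 to 23 averaged and 0 to 1 for the lungs minus pancreas effect. Called loci ranged from 6 to 9, 8 to 9 and 0 to 1 in the Smad4-off comparisons in the same order, and from 0 to 1 on liver restoration. Where a group was left with 1 mouse, that mouse was assumed to vary like the others.

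With start sites within 25 kb, only 51 peaks were members, so the counts are out of 51 and cannot be set beside the ranges above. Of these 51, 38, 43, 9, 21, 41 and 18 were called in these 6 comparisons. The shares of all peaks called were those of the main fit, from 17.3% between Lung_OFF and Panc_OFF to 59.4% between Liv_ON and Panc_ON. On restoration 0 were called in the pancreas, 2 in the liver and 4 averaged. Between Lung_OFF and Panc_OFF 0 loci were called. With all members and thresholds of 1 and 0.05, 17 were called between Lung_OFF and Panc_OFF and 29 between Lung_ON and Panc_ON. On restoration 0 were called in the pancreas, 1 in the liver and 3 averaged. Called loci numbered 4, 4 and 0 in the Smad4-off comparisons. In the pancreas, restoration calls were 3 with a pseudocount of 10, 2 with a mean of at least 20, 5 with quantile normalisation, 7 with only the groups compared, 3 with GC correction, 2 by edgeR and 10 by DESeq2. In the liver they were 3 with quantile normalisation, 0 with only the groups compared and 11 by DESeq2. The Fn1 locus was called there, as 1 locus, with only the groups compared and by DESeq2. DESeq2 called 2 members for the lungs minus pancreas effect.

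With a replicate block the restoration calls were 2 in the pancreas and 3 in the liver. With the block and GC correction they were 2 and 1. With a block for the lung samples alone they were 5 and 9, and 1 for the lungs minus pancreas effect. Under the block, Twist2 locus (-0.55, Liv_OFF minus Panc_OFF) and Zeb2 +90.6 kb (adjusted p = 0.113, liver restoration) lost their calls, and no other named value did without the GC correction.

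Sign changes at the Snai1 start-site peak were to 0.00 (quantile), -0.08 (GC) and -0.07 (block with GC) between Liv_OFF and Lung_OFF, to -0.02 (quantile) against Panc_OFF, and to -0.01 (quantile) and -0.02 (without Panc_OFF replicate 1) between lungs and pancreas. At the Zeb1 start-site peak they were to -0.06, -0.15 and -0.18 in the same order between Liv_OFF and Lung_OFF, and against Panc_OFF to -0.05 (TMM), -0.28 (quantile), -0.27 (GC), -0.30 (block with GC), -0.05 (without Liv_OFF replicate 1) and -0.04 (edgeR). The Snai2 locus went to -0.01 (TMM), -0.19 (quantile), -0.17 (25 kb), -0.13 (without Liv_OFF replicate 2), -0.23 (edgeR) and -0.24 (DESeq2) between liver and lungs. The Zeb1 locus went to 0.05 between liver and lungs and to -0.02 on pancreas restoration with 25 kb. The Snai1 locus went to 0.03 between lungs and pancreas without Lung_OFF replicate 2. On restoration the Twist2 locus went to 0.00 and -0.03 in the pancreas without Panc_OFF replicate 2 or Panc_ON replicate 3, the Twist1 locus to 0.30 and 0.00 in the liver without Liv_ON replicate 2 or by DESeq2, and the Prrx1 locus to 0.03 in the lungs without Lung_OFF replicate 1. Over all leave-one-out fits these values ranged from -0.02 to 0.09 (Snai1 start site, lungs minus pancreas), -0.05 to 0.14 (Zeb1 start site, liver minus pancreas), -0.21 to 0.03 (Snai1 locus), -0.13 to 0.24 (Snai2 locus), -0.03 to 0.11 (Twist2 locus), -0.76 to 0.30 (Twist1 locus) and -0.58 to 0.03 (Prrx1 locus). The median over all peaks between liver and pancreas moved from -0.05 to -0.14 with TMM factors.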

Other observations

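The miR-200 genes, whose products repress Zeb1 and Zeb2, are not among the 10 loci. All 3 peaks within 10 kb of Mir200b, Mir200a and Mir429 were called higher in Liv_OFF than in Lung_OFF, with log2 differences of 0.98, 2.07 and 1.77, and all 3 were called lower on Smad4 restoration in the pancreas, by limma, at -1.78, -0.89 and -1.77. The broadest of them was at 4732 ± 471 normalised counts (SD, n = 2) in Liv_OFF, 1206 ± 559 (n = 3) in Lung_OFF, 954 ± 226 (n = 3) in Panc_OFF and 507 ± 37.0 (n = 3) in Panc_ON. In the liver and lungs its differences on restoration were -0.32 and -0.32 and were not called. Of the 3 peaks near Mir200c and Mir141, 1 was called higher in Liv_OFF than in Lung_OFF (2.51) and none was called on restoration. The interactions between organs, fitted by limma over all peaks, were called at none of the 6 peaks. At the 3 peaks near Mir200b the restoration effect in the lungs minus that in the pancreas was 1.09, 0.57 and 1.45 (adjusted p = 0.339, 0.597 and 0.246, with 2 at an unadjusted p under 0.05), and that in the liver minus that in the pancreas was 1.43, 0.57 and 1.30 (adjusted p = 1.0 for each, again 2 at an unadjusted p under 0.05), so the effects are not shown to differ between organs.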
